A study of Homo sapiens and Mus musculus with 33 samples.

Results

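The nuclear-encoded genes of the respiratory chain and the ATP synthase were followed through human and mouse cell cultures in which newly made RNA had been tagged with 4-thiouridine (4sU). Members were taken by symbol: the NDUF genes of complex I, the SDH genes of complex II, the UQCR genes of complex III, the COX4 to COX8 subunit genes of complex IV and the ATP5 genes of complex V, without antisense and pseudogene symbols. Of 36601 human features 88 symbols matched and 3 were left out, which gave 85 members (38, 4, 9, 15 and 19 for complexes I to V). Of 32285 mouse features 83 matched and 1 was left out, which gave 82 members (37, 4, 8, 16 and 17). COX4I1, COX4I2, NDUFAB1, CYC1 and CYCS fall outside these name patterns and were read as a separate list. NDUFA4 was counted with the NDUF genes, although its product is now placed in complex IV, and ATP5MD and ATP5MPL are the older symbols of ATP5MK and ATP5MJ.

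The bulk data were SLAM-seq libraries of Jurkat cells, a line from a human T cell leukaemia, with 3 libraries each for the treatments named CPT (50 nM) and ETO (1 µM) and for control, all titled as 4sU labelled. In SLAM-seq, iodoacetamide (IAA) alkylates 4sU in extracted RNA, and reverse transcription then leaves a T-to-C conversion in reads from new RNA. Single-cell libraries, made with 10x 3' chemistry, came from Jurkat cells stimulated with PMA and ionomycin (PMA/ION) or left unstimulated in DMSO, with 2 libraries each, all with 4sU. Naive T cells of mouse lymph nodes, stimulated through CD3 and CD28 with antibodies and labelled with 4sU, gave a library each at 0, 2, 4, 6 and 8 h, and a further library was made without 4sU. From eHAP cells, a haploid human line, there were a methanol-fixed library with 4sU and IAA, a NOTE-seq library (formaldehyde-fixed, converted within the cell, with 4sU) and a 10x library without 4sU. Cells labelled K562 gave a library with IAA and a library without, both with 4sU, and an even mix of Jurkat cells and mouse NIH3T3 fibroblasts gave a library without 4sU. The labels give clone E6-2 for stimulated and clone E6-1 for unstimulated Jurkat libraries, so clone and stimulation cannot be told apart. Since the labels do not tie the libraries of a group to separate cultures, the p-values reflect spread between libraries that may be technical.

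The SLAM-seq libraries held 19049329 to 40839684 reads, and 1.21 to 1.23% of reads carried a conversion in CPT, 2.16 to 2.17% in ETO and 1.96 to 2.05% in control libraries. CD3D, a chain of the T cell receptor complex, stood at 595 to 621 CPM (reads of a gene over all reads of the library, times 1e6) in CPT, 520 to 552 in ETO and 583 to 608 in control libraries, and LCK, a T cell kinase, at 448 to 494, 462 to 467 and 430 to 447 CPM. CD3E, another chain of that complex, was higher with CPT, at 483 to 497 CPM, with 278 to 316 in ETO and 263 to 306 in control libraries. In the libraries labelled K562, 4 of 8 erythroid markers were seen with IAA, at 1.16 CPM in all, and 0 of 8 without IAA, while LYZ, a myeloid lysozyme gene, stood at 134 CPM with IAA and 97.2 CPM without. These libraries are therefore called by their label only. Barcodes shared between libraries made up at most 2.04% of the smaller library (1 of 49) and otherwise at most 0.51%. Both assays count 3' ends, so a CPM here is not scaled by gene length, and levels of different genes are set side by side only as counts.

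The respiratory chain passes electrons, taken from NADH by complex I and from succinate by complex II, through ubiquinone, complex III and cytochrome c to oxygen at complex IV. Complexes I, III and IV pump protons out of the matrix, and complex V, the ATP synthase, lets them back in to make ATP. Complex II is encoded by nuclear genes alone, whereas complexes I, III, IV and V also hold subunits encoded on the mitochondrial chromosome (chrM), which is transcribed within the organelle. The nuclear members are constitutive genes in most tissues, and lymphocytes enlarge their mitochondrial mass when they are activated. The transcription factors NRF1, GABP (an ETS family factor) and YY1 are known to bind promoters of many of these genes.

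Promoter windows show the kind of sequence from which these genes are read. RefSeq windows of 250 bases before to 50 bases after the annotated start (GRCh38.p14) were found for 70 of the 85 human members. They were searched on both strands for CCGGAAG (the core an ETS factor prefers), GCATGCGC (an NRF1 core) and AAGATGGC (a YY1 core), motifs whose letters do not contain each other. CCGGAAG was present in 19 of 70 members' windows (27.1%), against 10.7% of all 27305 promoter windows. GCATGCGC was present in 13 (18.6%, against 3.27% of all windows) and AAGATGGC in 11 (15.7%, against 3.03%). At least 1 of these motifs was present in 33 windows (47.1%, against 15.6%). A match is a description of the letters, not of binding. Each gene has 1 window at 1 annotated start, and its other starts were not searched. For ATP5PF and COX7A2L the window lies inside the annotated span of the gene. The 5 windows printed here belong to members described further on, each shown 5′ to 3′ on the gene's strand with motif matches in capitals. SDHB (chr1:17053983-17054282, minus strand) and ATP5PF (chr21:25735005-25735304, minus strand) hold all 3 cores. COX6A1 (chr12:120437863-120438162, plus strand) holds NRF1 and ETS cores, NDUFS7 (chr19:1383657-1383956, plus strand) an NRF1 and a YY1 core, and COX7A2L (chr2:42361168-42361467, minus strand) none of them.
SDHB: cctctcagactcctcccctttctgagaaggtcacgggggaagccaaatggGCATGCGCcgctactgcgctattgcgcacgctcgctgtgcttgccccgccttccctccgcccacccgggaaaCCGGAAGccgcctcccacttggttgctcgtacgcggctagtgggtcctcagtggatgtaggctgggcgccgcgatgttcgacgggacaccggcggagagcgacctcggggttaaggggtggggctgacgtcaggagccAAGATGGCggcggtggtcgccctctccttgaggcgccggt
ATP5PF: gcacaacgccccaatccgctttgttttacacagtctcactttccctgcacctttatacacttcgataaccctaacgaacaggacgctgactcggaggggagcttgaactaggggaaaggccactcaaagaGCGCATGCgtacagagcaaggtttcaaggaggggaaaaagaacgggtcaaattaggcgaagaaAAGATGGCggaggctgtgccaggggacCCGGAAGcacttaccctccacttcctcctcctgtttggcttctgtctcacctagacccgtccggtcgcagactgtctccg
COX6A1: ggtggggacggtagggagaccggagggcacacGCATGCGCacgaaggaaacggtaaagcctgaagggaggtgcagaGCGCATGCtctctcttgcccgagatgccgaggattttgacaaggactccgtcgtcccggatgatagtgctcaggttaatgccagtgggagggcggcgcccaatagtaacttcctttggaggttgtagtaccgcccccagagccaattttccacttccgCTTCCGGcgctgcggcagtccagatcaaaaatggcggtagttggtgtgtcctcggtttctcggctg
NDUFS7: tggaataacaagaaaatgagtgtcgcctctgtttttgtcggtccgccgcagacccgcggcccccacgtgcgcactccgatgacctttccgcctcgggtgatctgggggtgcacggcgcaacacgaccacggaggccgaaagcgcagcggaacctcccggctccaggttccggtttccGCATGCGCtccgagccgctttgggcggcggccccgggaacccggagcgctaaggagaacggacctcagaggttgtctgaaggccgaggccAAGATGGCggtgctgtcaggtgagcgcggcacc
COX7A2L: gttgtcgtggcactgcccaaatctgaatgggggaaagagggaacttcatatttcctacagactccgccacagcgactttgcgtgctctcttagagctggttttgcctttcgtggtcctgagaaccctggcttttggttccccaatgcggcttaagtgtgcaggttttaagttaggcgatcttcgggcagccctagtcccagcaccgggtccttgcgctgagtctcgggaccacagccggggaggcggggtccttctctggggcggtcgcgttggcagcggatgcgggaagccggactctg

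In Jurkat total RNA most members were lower after CPT than in control. The members together took 1.74 to 1.77% of all reads in CPT libraries, against 2.04 to 2.08% in control libraries, and summed to 17541 ± 160 CPM against 20567 ± 210 CPM (SD, n = 3 each). The low-count filter left out UQCRB, COX6A2, COX7A1, COX7B2 and COX8C. Of the 80 members tested with edgeR's quasi-likelihood test across all 14884 rows, 64 passed an adjusted p of 0.05, and 55 of these were lower and 9 higher with CPT. Over all rows tested, 52.1% passed, 26.5% lower and 25.7% higher. The median log2 fold change was −0.26 over the members and 0.01 over all rows. CPT and control libraries did not overlap in CPM for 56 of the 80 members, against 58.2% of all rows. In bulk RNA fewer cells of a type and less RNA per cell cannot be told apart, and every level is relative to the rest of the library.

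The ATP synthase genes changed most in amount. Their sum was 7320 ± 102 CPM in CPT libraries, against 9223 ± 241 CPM in control libraries, and 16 of 19 were lower and 1 higher (log2 −1.37 to 0.64, median −0.41). ATP5MG, subunit g of the membrane part and the most abundant member in all 9 libraries, had 1645, 1602 and 1479 CPM in CPT libraries, against 2533, 2176 and 2046 in control libraries (log2 −0.58 ± 0.061, edgeR adjusted p = 6.32e-08). ATP5MC1, ATP5MC2 and ATP5MC3 encode the same mature c subunit of the rotor ring, with different targeting peptides. ATP5MC2 had 455, 430.0 and 411 CPM in CPT libraries, against 734, 701 and 677 in control libraries (log2 −0.77 ± 0.053, edgeR adjusted p = 9.28e-11). ATP5MC3 had 804, 828 and 836 CPM in CPT libraries, against 1116, 1056 and 996 in control libraries (log2 −0.42 ± 0.049, edgeR adjusted p = 2.61e-07). ATP5MC1 had 276, 275 and 269.6 CPM in CPT libraries, against 264, 327 and 334 in control libraries, so that its groups overlapped (log2 −0.24 ± 0.069, edgeR adjusted p = 0.00614).

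The other parts of the synthase were lower by differing amounts. ATP5F1D, the delta subunit of the central stalk, had 18, 19.8 and 16.3 CPM in CPT libraries, against 44.7, 47.2 and 42.3 in control libraries (log2 −1.37 ± 0.12, edgeR adjusted p = 2.49e-09). The same gene had 475 to 488 CPM in the single-cell Jurkat libraries with no replicate number, so its SLAM-seq counts were low beside those libraries. Most members stood higher in them than in the single-cell libraries labelled rep1, whose values for this gene are not given here. ATP5PF, subunit F6 of the peripheral stalk, whose promoter window holds all 3 motif cores, had 280.2, 266 and 300.3 CPM in CPT libraries, against 390.3, 364 and 377 in control libraries (log2 −0.48 ± 0.055, edgeR adjusted p = 2.14e-07). ATP5PD, subunit d of the same stalk, stood at log2 −0.56, and ATP5F1A, the alpha subunit, at −0.37 (edgeR adjusted p = 3.71e-07 and 7.81e-06). The catalytic beta subunit ATP5F1B had 596, 594 and 621 CPM in CPT libraries, against 613, 669.9 and 649 in control libraries, with overlapping groups (log2 −0.16 ± 0.050, edgeR adjusted p = 0.0127). ATP5IF1, the inhibitor protein that blocks ATP hydrolysis, and ATP5ME, subunit e, did not pass. The single higher member was ATP5MGL, a paralog of ATP5MG, at 6.6, 5.44 and 5.56 CPM in CPT libraries, against 3.25, 3.31 and 4.23 in control libraries (log2 0.64 ± 0.21, edgeR adjusted p = 0.0135).

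Of the complex IV genes 9 of 11 tested were lower with CPT and 1 higher (median log2 −0.27). Their sum was 2381 ± 29.3 CPM in CPT libraries, against 2974 ± 29.1 CPM in control libraries. COX7A2L, which helps join complexes III and IV into supercomplexes, had 63.1, 63.4 and 56.7 CPM in CPT libraries, against 108, 107 and 107 in control libraries (log2 −0.87 ± 0.067, edgeR adjusted p = 5.41e-10). COX5A, a matrix-side subunit, had 171, 171 and 167 CPM in CPT libraries, against 283, 270.4 and 265 in control libraries (log2 −0.75 ± 0.054, edgeR adjusted p = 1.82e-10). The groups lay far apart for both, and the spread within each was small. COX6A1, the ubiquitous form of subunit VIa, had 391, 401 and 404 CPM in CPT libraries, against 545, 516 and 519 in control libraries (log2 −0.46 ± 0.049, edgeR adjusted p = 5.58e-08). COX8A, the most abundant complex IV gene by count in the CPT libraries, stood at log2 −0.25, and COX6B1, the ubiquitous form of subunit VIb, at −0.27 (edgeR adjusted p = 0.000345 and 0.000187). COX7A2, the liver-type form of subunit VIIa found in most tissues, had 271, 253 and 244 CPM in CPT libraries, against 245, 272 and 275 in control libraries and did not pass (log2 −0.11 ± 0.059, edgeR adjusted p = 0.144). The higher call was COX6B2, known as the testis form, at 0.565, 1.55 and 0.787 CPM in CPT libraries, against 0.273, 0 and 0.128 in control libraries, which is near the detection floor (log2 2.78 ± 0.85, edgeR adjusted p = 0.00912). This call was lost without CPT library 2 and without control library 2 (log2 2.20 to 3.72 over all alternatives). The muscle forms COX6A2 and COX7A1 and COX7B2 had 0 reads, and COX8C was too low to test.

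Complexes II and III held fewer genes and moved the same way. In complex II 3 of 4 genes were lower with CPT and 0 higher (median log2 −0.48), with sums of 309 ± 10.1 CPM against 419 ± 9.49 CPM in control libraries. SDHC, a membrane anchor that carries haem, had 142, 139.6 and 135 CPM in CPT libraries, against 224, 219.9 and 209 in control libraries (log2 −0.71 ± 0.057, edgeR adjusted p = 1.1e-09). SDHB, the iron-sulfur subunit, had 36.5, 48.6 and 41.2 CPM in CPT libraries, against 60.6, 55.5 and 64.3 in control libraries (log2 −0.58 ± 0.091, edgeR adjusted p = 1.66e-05), and SDHA, the flavoprotein that oxidises succinate, stood at log2 −0.39 (edgeR adjusted p = 0.000233). SDHD, the other anchor, had 56.7, 52.8 and 58.8 CPM in CPT libraries, against 51.9, 42.9 and 57.9 in control libraries, with overlapping groups (log2 0.08 ± 0.095, edgeR adjusted p = 0.517). In complex III 6 of 8 genes tested were lower and 1 higher (log2 −0.45 to 0.29, median −0.24), with sums of 1734 ± 58.0 CPM in CPT and 1891 ± 5.89 CPM in control libraries. The higher gene was UQCRC1, a core subunit, at 162, 176 and 189 CPM in CPT libraries, against 142, 138 and 133 in control libraries (log2 0.29 ± 0.064, edgeR adjusted p = 0.000681). Its partner core subunit UQCRC2 stood at log2 −0.45 (edgeR adjusted p = 5.69e-06), but 99.8% of its reads mapped to more than 1 place. UQCR11, the most abundant complex III gene by count, had 412, 433 and 468 CPM in CPT libraries, against 421, 439.8 and 439 in control libraries and did not pass (log2 −0.05 ± 0.056, edgeR adjusted p = 0.496).

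Complex I was split. Of its 38 genes 21 were lower and 6 higher with CPT (log2 −0.97 to 0.57, median −0.18), and the sum was 5796 ± 91.1 CPM, against 6061 ± 63.6 CPM in control libraries. The higher ones included core subunits of the peripheral arm, where NADH is oxidised. NDUFV1, which binds the flavin and NADH, had 98.0, 86.4 and 80.5 CPM in CPT libraries, against 55.6, 63.3 and 59.9 in control libraries (log2 0.50 ± 0.076, edgeR adjusted p = 8.93e-06). NDUFS7, which carries the last iron-sulfur cluster before ubiquinone and whose window holds an NRF1 and a YY1 core, had 107, 96.5 and 90.6 CPM in CPT libraries, against 53.1, 64.7 and 74.5 in control libraries (log2 0.55 ± 0.094, edgeR adjusted p = 4.02e-05). NDUFS3, another core subunit, had 258, 253 and 241 CPM in CPT libraries, against 162, 157 and 166 in control libraries (log2 0.57 ± 0.053, edgeR adjusted p = 9.62e-09), with 99.9% of its reads mapping to more than 1 place. In each of these 3 the lowest CPT library lay above the highest control library. NDUFB2 and NDUFB11, both accessory subunits of the membrane arm, stood at log2 0.21 and 0.27 (edgeR adjusted p = 0.00813 and 0.000978).

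Among the complex I genes lower with CPT, NDUFA3, an accessory subunit, had 27.2, 20.3 and 21.2 CPM in CPT libraries, against 42.4, 43.8 and 42.5 in control libraries (log2 −0.97 ± 0.11, edgeR adjusted p = 1.42e-07), with 99.8% multimapped reads. NDUFA4 had 380.4, 363 and 360.4 CPM in CPT libraries, against 532, 482 and 477 in control libraries (log2 −0.50 ± 0.053, edgeR adjusted p = 8.34e-08), and its hypoxia-induced paralog NDUFA4L2 had 1.41, 0.879 and 1.21 CPM in CPT libraries, against 1.52, 1.12 and 1.36 in control libraries and did not pass (log2 −0.26 ± 0.44, edgeR adjusted p = 0.645). NDUFS5, the most abundant complex I gene by count in the CPT libraries, had 479, 439 and 416 CPM in CPT libraries, against 452, 489.5 and 480.1 in control libraries, with a small difference and overlapping groups (log2 −0.15 ± 0.055, edgeR adjusted p = 0.0234). That call was lost without CPT library 3, without control library 2 and with the CPT and control libraries fitted alone (log2 −0.22 to −0.14 over all alternatives). Over the whole set, 6 of 80 members had more than 50% multimapped reads (NDUFA3, NDUFA6, NDUFS1, NDUFS3, UQCRC2 and ATP5IF1) and 13 more than 10%. The further ones were SDHA, SDHC, SDHD, UQCRFS1, COX6A1, ATP5F1E and ATP5PB. UQCRB, a small complex III subunit, was not tested. The only line named for it by position, of 54 bases on the plus strand, held 12 reads over the 9 libraries. Its level in SLAM-seq is therefore not known, whereas it was tested in the Jurkat single-cell sums. The part of the naming by position in this low count was not tested.

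With ETO the members were also lower than in control, by less. They took 1.86 to 1.88% of reads in ETO libraries, against 2.04 to 2.08% in control libraries, and summed to 18678 ± 74.8 CPM against 20567 ± 210 CPM (SD, n = 3 each). Of 80 members 48 passed the edgeR test, 41 lower and 7 higher, beside 38.1% of all rows (18.6% lower and 19.5% higher). The median log2 fold change was −0.16 over members and 0.02 over all rows, and 53 members had groups that did not overlap (52.3% of all rows). Sums fell to 8051 ± 115 CPM for complex V in ETO libraries, against 9223 ± 241 CPM in control libraries, and to 2467 ± 10.8 CPM for complex IV, against 2974 ± 29.1 CPM. By complex, 12 of 19 genes of complex V, 9 of 11 of complex IV, 3 of 4 of complex II and 16 of 38 of complex I were lower, while in complex III it was 1 of 8. Complex III summed to 1874 ± 48.1 CPM in ETO libraries and 1891 ± 5.89 CPM in control libraries, a difference within the spread.

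Subunits of the synthase and of complex I led the genes lower with ETO. ATP5F1D had 22.1, 16.4 and 15.4 CPM in ETO libraries, against 44.7, 47.2 and 42.3 in control libraries (log2 −1.36 ± 0.11, edgeR adjusted p = 5.93e-09). NDUFA3 had 18.7, 15.5 and 19.1 CPM in ETO libraries, against 42.4, 43.8 and 42.5 in control libraries (log2 −1.31 ± 0.11, edgeR adjusted p = 4.42e-09). ATP5MC2 had 454, 457 and 488 CPM in ETO libraries, against 734, 701 and 677 in control libraries (log2 −0.63 ± 0.053, edgeR adjusted p = 6.11e-09). ETO and control libraries were apart in all 3 genes. COX7A2L and ATP5PD stood at log2 −0.59 and −0.58 (edgeR adjusted p = 3.87e-07 and 5.78e-07). ATP5MG had 1737, 1814 and 1892 CPM in ETO libraries (log2 −0.34 ± 0.061, edgeR adjusted p = 0.000123), and COX6A1, the most abundant complex IV gene in 2 of the 3 ETO libraries, stood at log2 −0.32 (edgeR adjusted p = 1.91e-05). In complex II, SDHC, SDHA and SDHB stood at log2 −0.40, −0.25 and −0.25 (edgeR adjusted p = 7.87e-06, 0.0124 and 0.0326), but SDHB lost its call in 5 of the 6 fits that left out an ETO or control library (log2 −0.31 to −0.20 over all alternatives), and SDHA without ETO library 2. SDHD, at 67.4, 57.3 and 58.6 CPM in ETO libraries, against 51.9, 42.9 and 57.9 in control libraries, did not pass (log2 0.23 ± 0.093, edgeR adjusted p = 0.0565).

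All 7 genes higher with ETO belong to complex I. NDUFS3 had 238, 233 and 233 CPM in ETO libraries, against 162, 157 and 166 in control libraries (log2 0.50 ± 0.053, edgeR adjusted p = 1.6e-07), and NDUFV1 had 85.0, 78.4 and 80.5 CPM in ETO libraries, against 55.6, 63.3 and 59.9 in control libraries (log2 0.42 ± 0.075, edgeR adjusted p = 0.000153). NDUFA10, an accessory subunit of the membrane arm, had 169, 153 and 157 CPM in ETO libraries, against 125, 128 and 128 in control libraries (log2 0.30 ± 0.060, edgeR adjusted p = 0.000368). For each of these the ETO libraries lay above every control library. NDUFS6, an accessory subunit that binds zinc, and NDUFB10 stood at log2 0.21 and 0.21 (edgeR adjusted p = 0.00795 and 0.0104), but neither passed without ETO library 1, and NDUFB10 not without control library 3 either (log2 at least 0.18 for NDUFS6 and 0.15 for NDUFB10 over all alternatives).

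**Figure D1:**
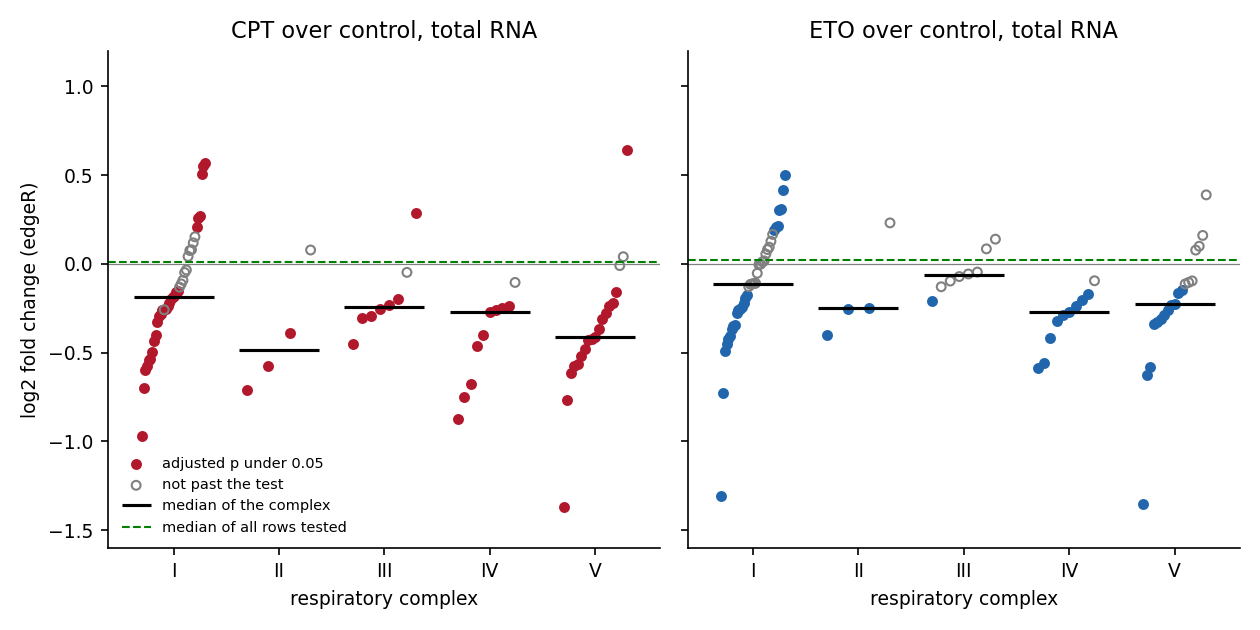
Each point is a member's log2 fold change in Jurkat total RNA (vertical axis) by complex (horizontal axis), with CPT over control on the left and ETO over control on the right. Filled points passed an edgeR adjusted p of 0.05, open grey points did not, black bars are complex medians and the green dashed line is the median of all rows, and COX6B2 lies outside the axis. With CPT the complex medians run between −0.48 (complex II) and −0.18 (complex I), and with ETO the median of complex III is nearest to 0.

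Set directly against each other, CPT libraries had lower members than ETO libraries. Of 80 members 28 passed, 24 lower and 4 higher with CPT, beside 33.9% of all rows (18.3% lower and 15.6% higher). The median log2 fold change was −0.12 over members and 0.01 over all rows, and 29 members did not overlap between the groups (42.4% of all rows). The lower calls were 11 of 19 genes in complex V, 5 of 38 in complex I, 3 of 11 in complex IV, 3 of 8 in complex III and 2 of 4 in complex II. ATP5MC1 had 276, 275 and 269.6 CPM in CPT libraries, against 359, 347 and 351 in ETO libraries (log2 −0.40 ± 0.069, edgeR adjusted p = 0.000105). NDUFA10 had 121, 127 and 114 CPM in CPT libraries, against 169, 153 and 157 in ETO libraries (log2 −0.43 ± 0.060, edgeR adjusted p = 8.36e-06). COX5A had 171, 171 and 167 CPM in CPT libraries, against 209, 216 and 200.3 in ETO libraries (log2 −0.33 ± 0.054, edgeR adjusted p = 5.64e-05). In all 3 genes the highest CPT library lay below the lowest ETO library. SDHC and ATP5MD, a small membrane subunit of the synthase, stood at log2 −0.31 and −0.39 (edgeR adjusted p = 0.000244 and 0.000891). The 4 higher calls were all in complex I: NDUFS7, at 107, 96.5 and 90.6 CPM in CPT libraries, against 65.2, 71.8 and 70.6 in ETO libraries (log2 0.47 ± 0.094, edgeR adjusted p = 0.000474), and NDUFA13, NDUFA3 and NDUFB11, at log2 0.40, 0.34 and 0.22 (edgeR adjusted p = 0.00194, 0.0213 and 0.0103). NDUFA3 lost its call without CPT library 1 and without ETO library 2 (log2 0.20 to 0.42 over all alternatives), and NDUFB11 without CPT library 2 and without ETO library 2 (log2 0.15 to 0.27).

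Reads of the mitochondrial chromosome took a larger share after both treatments. The SLAM-seq tables hold 16 chrM lines, 2 for ribosomal RNA and 14 for transfer RNA, and none of the 13 chrM protein genes was read from them. These lines took 5.31 to 6.68% of reads in CPT, 2.88 to 3.03% in ETO and 1.05 to 1.24% in control libraries. Member reads per chrM read were 0.26 to 0.33 in CPT, 0.62 to 0.65 in ETO and 1.68 to 1.95 in control libraries. Of chrM reads, 0.241 to 0.252% carried a conversion in CPT, 0.429 to 0.470% in ETO and 0.292 to 0.322% in control libraries. MALAT1, a nuclear RNA, stood at 20.3 to 22.8 CPM in CPT, 12.5 to 16.0 in ETO and 7.57 to 8.38 in control libraries. In Jurkat single-cell libraries it stood at 743 to 4144 CPM, so its SLAM-seq counts are low for these cells. RAG1, a recombinase gene of immature lymphocytes, stood at 2.05 to 2.47 CPM in CPT, 8.72 to 9.87 in ETO and 16.4 to 19.5 in control libraries. With chrM reads taken out of the totals the members summed to 18614 to 18705 CPM in CPT, 19200.5 to 19321 in ETO and 20662 to 21070.0 in control libraries, so the groups stayed apart. The part of these shifts in the members' values was not tested further.

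Gene length was read beside the CPT result because the members are short. Their median span was 8.92 kb, against 27.4 kb over 13203 tested genes with a span. In genes under 10 kb the median log2 fold change of total RNA with CPT over control was −0.24 for members and 0.09 for all genes. At 10 to 30 kb it was −0.29 for members and 0.05 for all genes, and from 30 kb upward −0.34 and −0.08. The members' medians were below those of all genes in each class.

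Related mitochondrial lists, set up by hand, were counted in the same fit. The shares of all rows to set beside these counts were 26.5% lower and 25.7% higher with CPT and 18.6% and 19.5% with ETO. For CPT against ETO they were 18.3% and 15.6%. In total RNA after CPT, 3 of 4 tested chain genes outside the name rule were lower and 0 higher, with NDUFAB1, the acyl carrier protein, at log2 −0.70 (edgeR adjusted p = 3.45e-09). Of 39 assembly factors 18 were lower and 7 higher (median −0.13), with COX17, a copper chaperone of complex IV, at −0.91 (edgeR adjusted p = 1.67e-10). Mitochondrial transcription and biogenesis genes had 13 of 18 lower and 1 higher (median −0.42), with SSBP1, which binds single-stranded mitochondrial DNA, at −0.56. The citrate cycle had 5 of 13 lower and 1 higher (median −0.15), with FH, fumarase, at −0.62, and the mitochondrial ribosome had 40 of 76 lower and 11 higher (median −0.21). With ETO these lists were mixed: 7 lower and 9 higher assembly factors (median 0.08), 5 lower and 2 higher biogenesis genes (0.02), 3 and 3 citrate cycle genes (−0.11) and 17 lower and 21 higher ribosome genes (0.04), while 2 chain genes outside the rule were lower and 0 higher. With CPT against ETO, 49 of 76 ribosome genes were lower and 2 higher (median −0.30), as were 17 and 1 assembly factors.

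New RNA of the members, counted from converted reads on the scale of each library's own converted total, gave no call. Of 70 members tested, 0 passed the edgeR adjusted p of 0.05 for CPT against control, 0 for ETO against control and 0 for CPT against ETO, beside 6.63%, 2.13% and 2.17% of 9071 rows. At an unadjusted p under 0.05 the counts were 8, 4 and 4 of 70, and all rows were not counted at that p. DESeq2 called 2 of 78 members in each comparison, beside 1210, 506 and 611 of 15056 rows. With library sizes from all reads in place of converted reads, edgeR called 23 of 69 members lower for CPT against control. For CPT against ETO it called 25 of 69 lower, with 0 higher in either. Beside these, 2955 and 3361 of all 8785 rows were called lower, a like share. The median log2 fold change then moved to −0.87 and −0.98 over members and to −0.83 and −0.90 over all rows. Members took 0.728 to 0.777% of new reads in CPT, 0.726 to 0.762% in ETO and 0.779 to 0.807% in control libraries. Median log2 fold changes were −0.08 with CPT and −0.05 with ETO over the members, and −0.06 and 0.01 over all rows. The new reads per member were few: ATP5MC2 had 43, 20 and 34 new reads in CPT, 50, 59 and 58 in ETO and 98, 139 and 140 in control libraries (ETO over control log2 −1.09 ± 0.31, edgeR adjusted p = 0.0695). SDHC had 6, 6 and 26 new reads in CPT, 41, 71 and 73 in ETO and 97, 74 and 77 in control libraries (CPT over control log2 −1.18, edgeR adjusted p = 0.143). ATP5F1B had 107, 131 and 101 new reads in CPT and 198, 227 and 246 in control libraries, which scaled to the smaller CPT totals was log2 0.50 ± 0.17 (edgeR adjusted p = 0.073).

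Of 18 tested mitochondrial transcription and biogenesis genes, 2 were lower and 1 higher in new RNA with CPT, beside 6.63% of all rows called. With ETO 1 was lower and 0 higher, beside 2.13% of rows. The CPT libraries held 234233 to 294359 converted reads, so the CPM given here stand for few reads. NRF1 was lower with both treatments. It had 23.3, 27.2 and 38.4 CPM of new reads in CPT, 59.9, 26.0 and 31.4 in ETO and 121, 121 and 119 in control libraries. The log2 fold change was −1.97 ± 0.46 with CPT (edgeR adjusted p = 0.00975) and −1.63 ± 0.41 with ETO (edgeR adjusted p = 0.0309). GABPB1, a subunit of GABP, was lower with CPT at log2 −1.27 (edgeR adjusted p = 0.00752), and POLG2 was higher at log2 2.03 (edgeR adjusted p = 0.0355).

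The labelled share, the percent of a gene's reads that carry a conversion, was low for nearly all members. In control libraries the median share over 78 members with at least 100 reads in each library was 0.698% ± 0.047, against 2.53% ± 0.038 over 10724 rows (SD of the library medians, n = 3). These rows, called all genes for the labelled share, are named genes and unnamed groups of overlapping 3' UTR lines. Of these members 75 lay below the middle of all genes and 63 at or below the 25th percentile. Complex medians were 0.616% ± 0.056 for I, 1.85% ± 0.070 for II, 0.674% ± 0.107 for III, 0.624% ± 0.041 for IV and 0.755% ± 0.074 for V. No unlabelled Jurkat SLAM-seq library was analysed here, so conversions from sequencing error or variants are part of each share. Counted as conversions per 100 covered T, the medians were 0.0647 for members and 0.217 for all genes.

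Complex II had the highest complex median, with SDHD at 3.17% ± 0.293 and SDHB at 2.08% ± 0.331. SDHA had 1.62% ± 0.471 and SDHC 1.08% ± 0.206. Multimapped reads made up 29.4% of SDHD, 43.4% of SDHA and 22.1% of SDHC reads, and 0.0141% of SDHB reads. The other high members were ATP5MGL, at 4.93% ± 0.634 with as few as 107 reads in a library, UQCRFS1, the Rieske iron-sulfur protein of complex III, at 2.69% ± 0.211, and NDUFS1, the largest complex I subunit, at 2.13% ± 0.120. Of the reads of UQCRFS1 and NDUFS1, 49.2% and 97.5% were multimapped. At the low end stood NDUFS7, at 0.0230% ± 0.0398, NDUFB7, at 0.0644% ± 0.111, NDUFS8, a core subunit with iron-sulfur clusters, at 0.0818% ± 0.0377, NDUFA11, at 0.0988% ± 0.0636, and ATP5F1D, at 0.101% ± 0.0927. Of the abundant genes ATP5MG had 0.849% ± 0.0391, ATP5F1B 0.976% ± 0.00472, NDUFA4 1.15% ± 0.0205 and ATP5MC3 1.36% ± 0.0788.

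**Figure D2:**
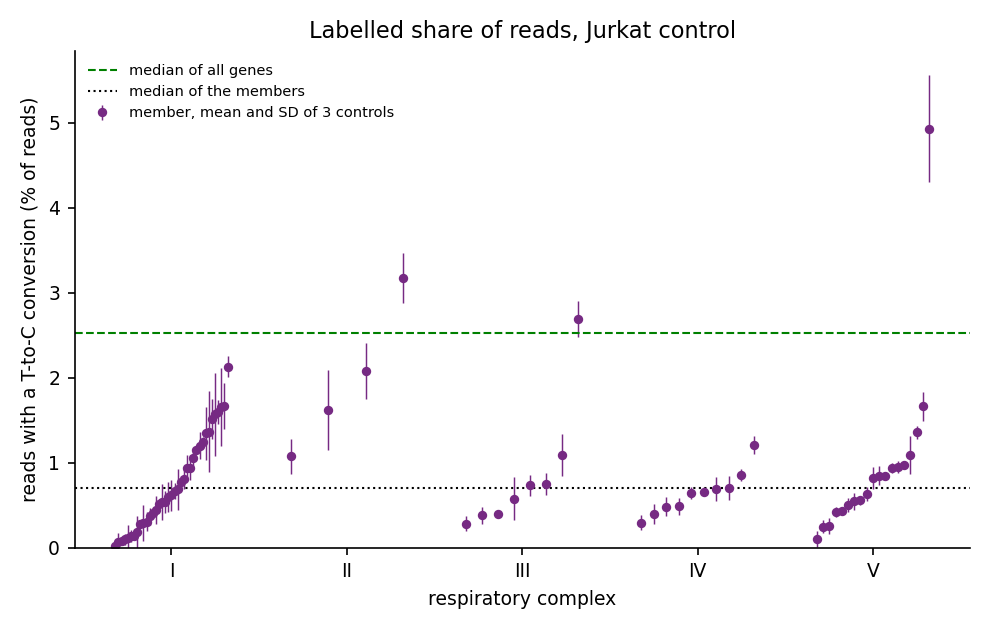
Each point is a member's labelled share in control Jurkat libraries (percent of its reads with a T-to-C conversion, mean of 3 libraries with SD bars), by complex, and lines mark the medians of the members, 0.698%, and of all genes, 2.53%. Nearly all members lie below the median of all genes.

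With CPT the members' median share was 0.433% ± 0.063, against 1.23% ± 0.044 over all genes, and with ETO 0.752% ± 0.059 against 2.59% ± 0.017. The test of the new-to-old ratio, an interaction of read kind and group with a term for each library, called 0 of 79 members for CPT against control, 0 for ETO against control and 0 for CPT against ETO, beside 1.09%, 0.732% and 0.204% of 14200 rows. The counts at an unadjusted p under 0.05 were 11, 7 and 13 of 79, and all rows were not counted at that p. Median log2 changes of the ratio over members were 0.15, 0.06 and 0.00, and over all rows −0.31, −0.05 and −0.23.

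In Jurkat single cells the edgeR fit by group alone called no member with PMA/ION stimulation. A fit with the set of libraries (rep1 or no number) as a block called 1 of 81. The labels were checked by response genes (EGR1, CD69, NR4A1 and FOS), which summed to 2644 and 2353 CPM in PMA/ION libraries, against 60.8 and 29.8 CPM in unstimulated libraries, in each case the library labelled rep1 before the library with no number. Of 81 members tested on UMIs (unique molecule counts) summed per library, 0 passed the edgeR adjusted p, as did 0% of all 19094 genes, 0 members had an unadjusted p under 0.05, and DESeq2 called 49 genes and 0 members. Because the edgeR fit by group alone called 0 genes, response genes included, its 0 members do not show an absence of change. The sums were dominated by a difference between the rep1 set and the set with no number. Members took 0.827 and 1.84% of UMIs in PMA/ION libraries and 0.877 and 1.80% in unstimulated libraries. Levels in the set with no number over rep1 had a median log2 ratio of 1.09 with PMA/ION and 0.95 unstimulated, with 70 and 68 of 82 members higher. The set held 1933 PMA/ION and 392 unstimulated cells, with medians of 8876 and 14975 UMIs per cell, and rep1 held 2296 and 1842 cells with 17284.5 and 17481 UMIs.

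Complex II differed little between the sets, with 252 and 259 CPM in PMA/ION libraries and 253 and 252 CPM in unstimulated libraries. The members have short 3' UTRs: the median length of the annotated line was 268.5 bases over 80 members and 1249 bases over 14011 genes, and 59 of the 80 were shorter than the median of all genes. In unstimulated cells the set with no number over rep1 had a median log2 ratio of 1.25, 0.67 and 0.76 over members with lines under 250, of 250 to 999 and of at least 1000 bases, and of 0.58, 0.16 and −0.55 over all genes in these classes. MALAT1 stood at 4144 and 743 CPM in PMA/ION libraries and 3929 and 1100 CPM in unstimulated libraries. The part of library quality in the set difference was not tested.

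Within each set no member differed 2-fold with PMA/ION. In the rep1 set 0 of 80 members were at least 2-fold higher and 0 at least 2-fold lower with PMA/ION, beside 3% of 14949 genes higher and 0.776% lower, with a median member log2 ratio of −0.10. In the set with no number it was 0 and 0 of 78 members, beside 2.03% of 11717 genes higher and 0.614% lower, with a median of 0.04. Of 82 members 8 were higher with PMA/ION in both sets, 24 lower in both and 50 opposite. The 13 chrM protein genes were above unstimulated in 0 of 13 cases in rep1 (median log2 −0.41) and in 9 of 13 in the set with no number (0.04). PMA/ION and unstimulated libraries were apart for 3 members, beside 14.1% of all genes. NDUFA10 had 165.8 and 162.1 CPM in PMA/ION libraries, against 154.2 and 149.2 CPM in unstimulated libraries. NDUFB5, an accessory membrane subunit, had 50.4 and 50.7 CPM, against 56.3 and 52.7 CPM. UQCRC2 had 122.6 and 89.7 CPM in PMA/ION libraries, against 82.0 and 78.5 CPM in unstimulated libraries. With the set as a block the edgeR fit called 10.8% of genes and 1 of 81 members, UQCRC2 (log2 0.42 ± 0.13, adjusted p = 0.0122). Of the chrM protein genes that fit called MT-ND6 (log2 −1.98 ± 0.16, edgeR adjusted p = 8.65e-32) and MT-ND5 (log2 −0.50 ± 0.14, edgeR adjusted p = 0.00653) lower, and no others.

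In mouse naive T cells the members' share of UMIs was higher at each later time of anti-CD3/anti-CD28 stimulation. They took 1.23% of UMIs at 0 h, 1.5% at 2 h, 2.13% at 4 h, 2.72% at 6 h and 3.01% at 8 h, with 1 library per time and therefore no test. The 13 chrM protein genes took 0.861, 0.949, 0.852, 0.787 and 0.783% at the same times, so member UMIs per chrM UMI were 1.43, 1.58, 2.51, 3.45 and 3.84. Cells were shallow, with medians of 375, 338, 425.5, 574 and 659 UMIs in 1777, 1997, 1806, 1965 and 973 cells. Activation markers summed to 45.1, 1348, 618, 230 and 71.8 CPM, and all 9 T cell markers were seen at every time (2543 to 3539 CPM in all). B cell markers summed to 5.47 to 34.2 CPM and myeloid markers to 43.5 to 87.3 CPM, mostly Cst3, with S100a8 and S100a9 at 0. The part of depth per cell, which was lowest at 2 h and highest at 8 h, was not tested.

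All complexes shared the direction. Complex I summed to 3724, 3957, 5406, 7248 and 8022 CPM at 0, 2, 4, 6 and 8 h, complex III to 1310, 1839, 2652, 3479 and 3783 CPM and complex IV to 2815, 3629, 4651, 5667 and 6347 CPM. Complex V summed to 4260, 5380, 8393, 10469 and 11607 CPM. Complex II had 197, 204, 238, 299.6 and 319 CPM, the smallest ratio of the 5. The chrM protein genes stayed between 7828 and 9491 CPM. Among members with at least 100 UMIs in the pair of libraries, those at least 2-fold above 0 h numbered 2 of 59 at 2 h (14.6% of all genes), 29 of 66 at 4 h (31.8%), 42 of 72 at 6 h (37.4%) and 47 of 68 at 8 h (38.8%). Those at least 2-fold below numbered 0, 3, 1 and 1, beside 14.8%, 21.1%, 21.8% and 23.9% of genes. These counts describe only genes deep enough in the pair, and a member low at 0 h could enter them only through the later library. Median log2 ratios were 0.42, 0.96, 1.18 and 1.42 over these members and 0.03, 0.24, 0.44 and 0.45 over all genes. With a minimum of 30 UMIs the median over all genes turned negative, at −0.10, −0.13, −0.15 and −0.09, and that over members was 0.32, 0.79, 1.17 and 1.33. Genes at least 2-fold higher at 6 h then numbered 1324 of 5358, with 42 of 75 members.

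Single genes followed different courses. Atp5g1, a c subunit gene of the synthase (ATP5MC1 in human), had 220.2, 352, 895, 1372 and 1320.1 CPM at 0, 2, 4, 6 and 8 h (8 h over 0 h log2 2.58, 95% interval 2.34 to 2.83). Its paralogs Atp5g2 and Atp5g3 had 462, 324, 477, 579 and 671 CPM and 175, 257, 416, 528 and 484 CPM. Uqcrq, a complex III subunit, had 222, 433, 903, 1353 and 1345 CPM (log2 2.60, 95% interval 2.36 to 2.85). Ndufa12, an accessory subunit of complex I, had 54.7, 56.6, 187, 333 and 377 CPM (log2 2.79, 95% interval 2.30 to 3.30), with the gain after 2 h. Cox5a had 67.0, 104, 212, 270.5 and 338 CPM (log2 2.33, 95% interval 1.89 to 2.81), and Atp5e, the epsilon subunit and the most abundant complex V gene at 8 h, 849, 988, 1467, 1792 and 2006 CPM. Sdhb had 57.4, 89.6, 97.1, 147 and 129 CPM (log2 1.17, 95% interval 0.63 to 1.74), whereas Sdha had 86.2, 65.9, 60.5, 55.8 and 71.8 CPM, without a gain.

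Few members had lower levels at later times. Cox7a2l had 480.0, 373, 135, 119.5 and 113 CPM (log2 −2.09, 95% interval −2.46 to −1.74), the member with the lowest ratio at 8 h. Ndufa6, an accessory complex I subunit, had 301, 194, 121, 173 and 190.0 CPM and Ndufv3 181, 136, 86.8, 112 and 125 CPM, both lowest at 4 h. Uqcrh, the hinge protein of complex III, had 511, 636, 442, 399 and 421 CPM, highest at 2 h. Cox6a2, Cox7a1, Cox8b, Cox8c and Ndufa4l2, forms known from muscle, testis or hypoxia, were at 0 at every time.

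The library without 4sU lay near 0 h in the members, with 1.31% of UMIs. At least 2-fold differences from 0 h numbered 0 higher and 0 lower of 69 members, beside 3.27% of genes higher and 0.239% lower, with a median member log2 ratio of 0.07. Its chrM protein genes took 1.67% of UMIs, and 11 of 11 were above 0 h (median log2 1.01). The mitochondrial ribosome list summed to 2738, 3401, 5492, 7149 and 8347 CPM at 0, 2, 4, 6 and 8 h, and the chain genes outside the rule to 726, 935, 1415, 1819 and 1745 CPM.

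**Figure D3:**
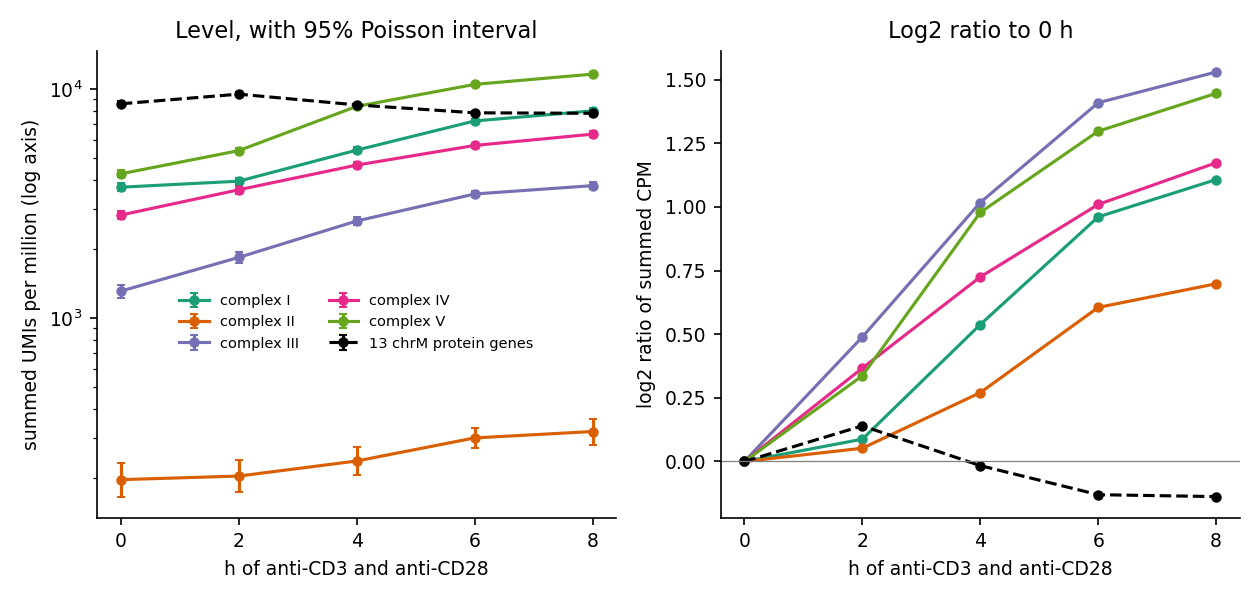
Summed CPM of each complex and of the 13 chrM protein genes in naive T cells over hours of stimulation (left, log axis, bars are 95% Poisson intervals), and the log2 ratio of each sum to 0 h (right). The complex sums lie higher at later times, with complex V at 11607 CPM at 8 h, while the chrM sum stays between 7828 and 9491 CPM.

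In eHAP cells the members' levels differed widely between the library preparations. They took 5.02% of UMIs in the methanol library, 1.95% in the NOTE-seq library and 1.92% in the 10x library, while chrM protein genes took 1.77, 2.17 and 4.67%. These were single libraries of 4223, 3046 and 2807 cells with 80944398, 33951891 and 55960312 UMIs, so no test was made, intervals cover counting error only, and fixation, 4sU and conversion cannot be told apart. With methanol 48 of 81 members were at least 2-fold above 10x and 1 was below, beside 3.49% of all genes above and 62.9% below. The median log2 ratio was 1.24 over members and −1.47 over all genes. Against NOTE-seq, methanol had 53 of 80 members at least 2-fold above and 3 below, beside 5.23% and 69.5% of genes (medians 1.38 and −1.83). NOTE-seq against 10x had 6 of 80 above and 3 below, beside 17.3% and 6.49% of genes, with medians of 0.03 and 0.12.

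With methanol the complexes differed in their ratio to 10x. Complex medians of methanol over 10x were 1.66 for IV, with 10 of 11 genes at least 2-fold above, 1.39 for V (12 of 19), 1.35 for III and 1.09 for I, and 0.18 for II (0 of 4). NDUFA3 had 352 CPM with methanol, 139.6 with NOTE-seq and 24.2 with 10x (methanol over 10x log2 3.86, 95% interval 3.78 to 3.94). ATP5ME had 1634 CPM with methanol, 328 with NOTE-seq and 178 with 10x (log2 3.20, 95% interval 3.17 to 3.23). UQCRQ had 895 CPM with methanol, 355 with NOTE-seq and 179 with 10x (log2 2.32, 95% interval 2.29 to 2.35). All 3 were also higher in NOTE-seq than in 10x. COX7C, a small subunit of complex IV, had 1397 CPM with methanol, 317 with NOTE-seq and 335 with 10x, and ATP5F1E, the epsilon subunit and the most abundant member with methanol, 1871 CPM with methanol, 609 with NOTE-seq and 441 with 10x. COX8A had 964 CPM with methanol, 846 with NOTE-seq and 304 with 10x, so that both fixed libraries lay above 10x.

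Other members were lower with methanol or differed less. NDUFS1, the long core subunit of complex I and the 1 member at least 2-fold below 10x with methanol, had 34.9 CPM with methanol, 156 with NOTE-seq and 98.1 with 10x (log2 −1.49, 95% interval −1.56 to −1.42). SDHA had 46.5 CPM with methanol, 90.5 with NOTE-seq and 63.3 with 10x, SDHB 179.9 CPM with methanol, 109.8 with NOTE-seq and 114 with 10x, SDHC 123 CPM with methanol, 156 with NOTE-seq and 123 with 10x and SDHD 147 CPM with methanol, 102 with NOTE-seq and 114 with 10x. UQCRC1 had 171 CPM with methanol, 314 with NOTE-seq and 139.7 with 10x, highest with NOTE-seq. ATP5MC3 had 1536 CPM with methanol, 461 with NOTE-seq and 918 with 10x and UQCRH 1405 CPM with methanol, 405 with NOTE-seq and 798 with 10x, both lowest with NOTE-seq. By 3' UTR line of under 250, 250 to 999 and at least 1000 bases, the median log2 ratio of methanol over 10x was 1.34, 1.38 and 0.58 for members and −0.11, −0.81 and −1.81 for all genes. For NOTE-seq over 10x it was 0.11, 0.06 and −0.06 for members and 0.13, 0.12 and 0.13 for all genes. The chrM protein genes were below 10x in sum by log2 −1.40 with methanol and −1.10 with NOTE-seq. MALAT1 stood at 7687 CPM with methanol, 2031 with NOTE-seq and 6146 with 10x, and 189 barcodes of the 10x library had at least 20% of UMIs from chrM.

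**Figure D4:**
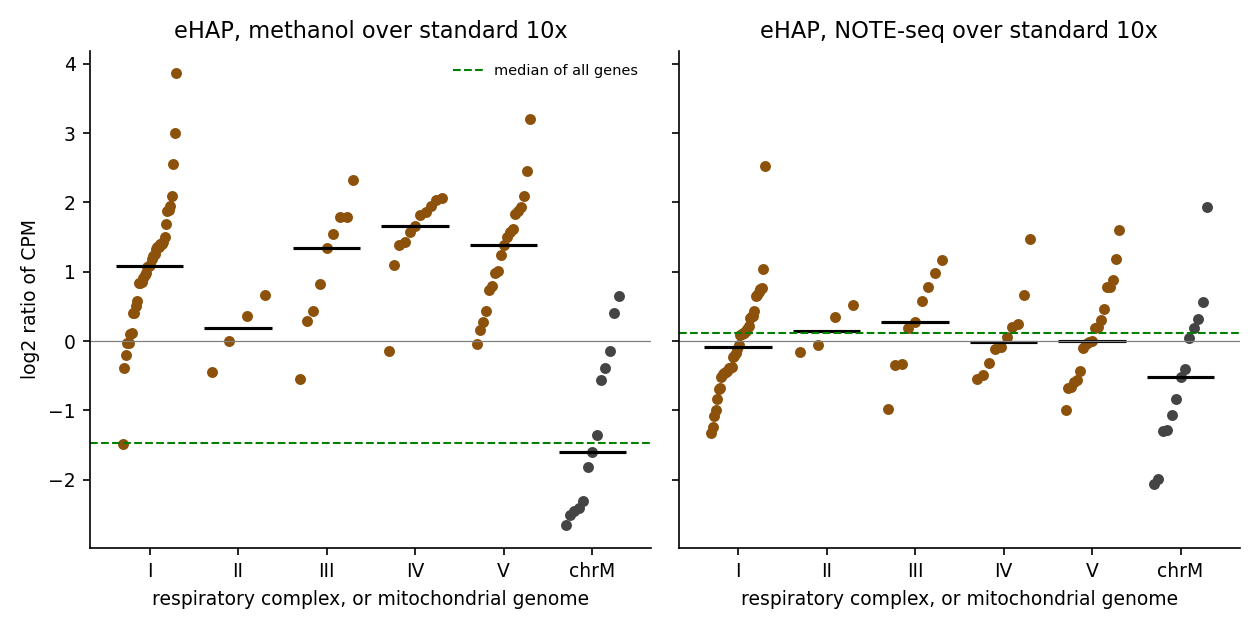
Points are log2 CPM ratios of each member and chrM protein gene in eHAP cells, by complex, for methanol over 10x and NOTE-seq over 10x, with black median bars and a green dashed line at the median of all genes. With methanol the members' median is 1.24 and that of all genes −1.47, and with NOTE-seq they are 0.03 and 0.12.

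In the libraries labelled K562 the members were slightly higher with IAA than without. They took 1.46% of UMIs with IAA (1511 cells) and 1.22% without (49 cells), and chrM protein genes 0.942 and 0.765%. Of 79 members 67 were above 0 on the log2 scale (median 0.29, all genes −0.06), and 3 were at least 2-fold higher and 0 lower, beside 4.8% and 1.96% of genes. The chrM protein genes were above in 11 of 13 cases (median 0.30). ATP5MC3 had 1058 CPM with IAA and 823 CPM without (log2 0.36, 95% interval 0.21 to 0.52), and COX5A 927 and 714 CPM (log2 0.38, 95% interval 0.21 to 0.54). SDHA, at 48.8 CPM with IAA and 52.0 CPM without, differed by less than its counting error (log2 −0.09, 95% interval −0.69 to 0.58). COX8C, known as a testis form, was detected here, with 215 UMIs with IAA and 3 UMIs without.

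**Figure D5:**
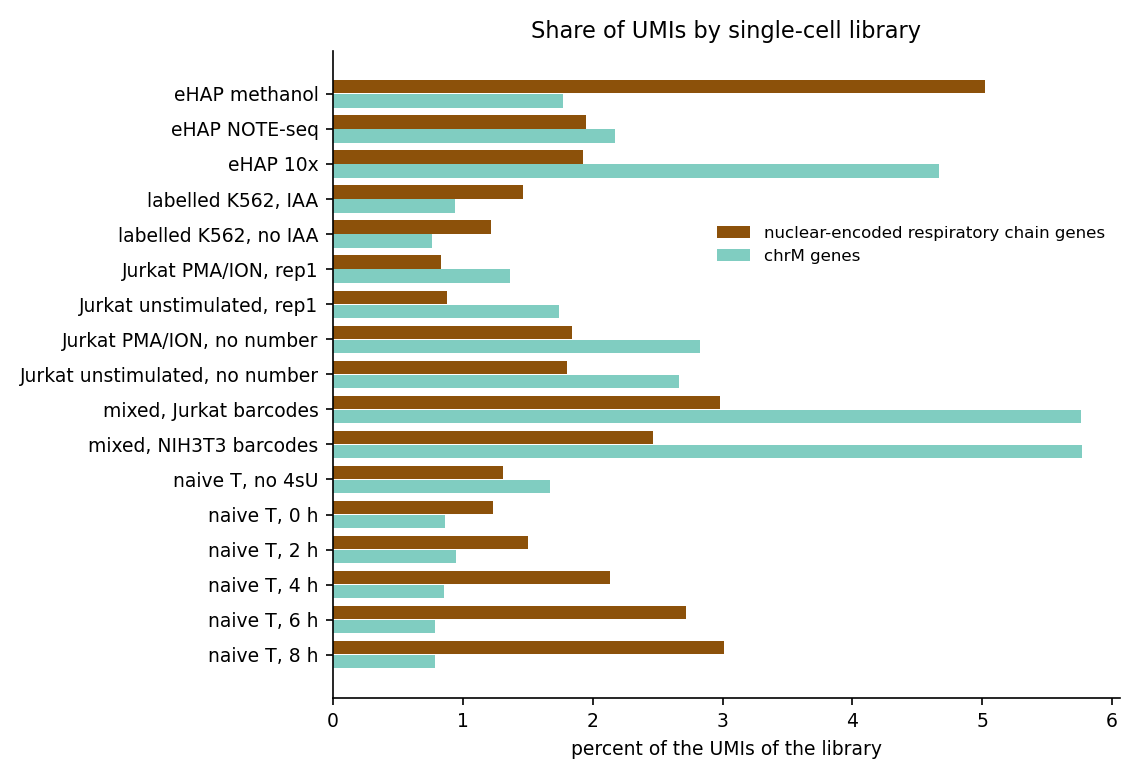
Bars give the percent of UMIs taken by the members and by the 13 chrM protein genes in each single-cell library, or in the barcodes of each species in the mixed library, with the axis starting at 0. The members' bar is highest in the methanol eHAP library, at 5.02%, and lowest in the Jurkat PMA/ION library labelled rep1, at 0.827%.

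Tissue forms were compared across the human cells. COX6A2 and COX7A1, the muscle forms, were at or near 0 in every human library, where COX6A1 and COX7A2 carried the counts. Near-identical copies were counted unevenly between assays: UQCRHL, which resembles UQCRH, stood at 65 to 81 CPM in SLAM-seq libraries but at 2.2 to 6.8 CPM in human single-cell libraries. ATP5MGL stood at 16.5 CPM in the PMA/ION and 17.3 CPM in the unstimulated Jurkat library labelled rep1, against 2.8 and 1.9 CPM in those with no number. In SLAM-seq, multimapped reads made up 0.101% of UQCRHL and 0% of ATP5MGL reads.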

How the data were processed

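Single-cell matrices were used as deposited, with UMI counts for each gene in each barcode. Per the submitters' processing notes they came from cellranger 7.1.0 and 7.2.0 with builds GRCh38 and mm10. The Jurkat SLAM-seq tables hold, per the file headers, read counts, converted read counts and T coverage for each annotated 3' UTR line, with the conversion rate as a fraction. The submitters' processing notes name slamdunk 0.4.3 for them. Not given in the sources used here are the mapping settings and how many conversions define a converted read. SLAM-seq reads have no UMIs, and every interval covers counting error alone.

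The 122255 SLAM-seq lines overlap and carry no symbols. They were merged into 68330 groups of overlapping lines, each represented by its line with the most reads, and named by position from a RefSeq table of GRCh38.p14, so that named genes held 94.1% of group reads. Reads shared between near-identical paralogs or overlapping genes cannot be split with certainty. Tests were made with edgeR 4.0.16 (R 4.3.3): filterByExpr, TMM scaling, the quasi-likelihood test and Benjamini-Hochberg adjustment over all rows, with all 9 Jurkat SLAM-seq libraries in 1 fit. Total RNA took all reads, new RNA took converted reads scaled by converted totals, and the new-to-old ratio set converted against other reads with a term per library. Single-cell UMIs were summed per library over all barcodes in the deposited matrices, without further filters on cells or doublets, and in the mixed library over barcodes with at least 90% of UMIs from a species. Where a group had 1 library, CPM were set side by side with exact Poisson 95% intervals and no test, and genes counted as 2-fold apart had at least 100 UMIs in the pair, with 0 counts set to 3. The fits were tested on simulated counts with a fixed spread for each kind of data and no difference between sets. For the Jurkat single-cell sums, where the sets differed, that simulation does not give the power of the fit.

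Members and lists were chosen with earlier results of these data known. Named genes are, per comparison, each complex's most abundant member, up to 5 members higher and 5 lower with the smallest p past the threshold and no overlap between groups, the 5 highest and 5 lowest labelled shares, the largest ratio per complex in single libraries, the SDH genes and the tissue isoforms, with others named to fill a count or a role after their values were seen. Library numbers did not pair the Jurkat SLAM-seq libraries (correlation of deviations −0.03 to 0.016). The 8 naive T SLAM-seq libraries were not used, since the sources used here pair their transcript lines with no genes. Alternatives were DESeq2 1.42.0, RLE scaling, no filter, 2 groups alone, sizes from all reads, a replicate block, each library left out, totals without chrM and other minimum counts.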

Additional observations from a re-analysis of the deposited data

How the results depend on the processing

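The counts of members called in total RNA stayed within 1.5 times under every alternative run. Leaving out a library gave 55 to 65 for CPT and 39 to 47 for ETO against control. For CPT against ETO it gave 22 to 30. With all libraries the counts were 64, 48 and 28, and with the replicate block 64, 49 and 27. Rows called with a library left out numbered 6753 to 7593, 4471 to 4849 and 4123 to 4838, of 15218 to 15516 tested. With the block they numbered 7528, 5337 and 4769 of 15554. The higher calls alone were fewer: 5 for CPT without control replicate 2, 4 for ETO without ETO replicate 1 and 2 for CPT against ETO without ETO replicate 2. Beside them, 3164 of 15316, 2398 of 15516 and 1818 of 15218 rows were called higher. In new RNA, library sizes from all reads moved the count of 0 to 23 of 69 members for CPT against control. For CPT against ETO it became 25 of 69. Rows called numbered 3046 and 3377 of 8785. The median of all genes itself moved to −0.83 and −0.90 on the log2 scale. DESeq2 called 2 of 78 in each comparison, beside 1210, 506 and 611 of 15056 rows. For ETO against control no filter gave 1 of 78 (245 of 15056 rows) and the 2 groups alone 3 of 69 (905 of 8618 rows). Leaving out a library gave 0 to 1 for CPT against control and for CPT against ETO. Rows called then numbered 256 to 828 and 62 to 384, of 9318 to 9491 tested. For the new-to-old ratio RLE scaling gave 2 of 79 for CPT against control (212 of 14200 rows). No filter gave 1, 2 and 1 of 82 for the 3 comparisons in the order used above (182, 129 and 64 of 23610 rows). The 2 groups alone gave 4 of 79 for ETO against control (414 of 13924 rows). Leaving out a library gave 0 to 3 for CPT against control and for CPT against ETO. Rows called then numbered 43 to 290 and 10 to 102, of 14019 to 14182 tested. The replicate block gave 0 calls in new RNA and 1 for PMA/ION against unstimulated Jurkat single cells, where the fit without it had 0. Rows called with the block numbered 456, 158 and 134 of 9642 in new RNA and 2060 of 19094 in single cells. The cause of these changes was not tested.

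Without chrM counts in the totals the members summed to 18666 CPM in CPT, 19249 in ETO and 20804 in control SLAM-seq libraries. In single cells they summed to 51093 CPM with methanol, 19891 with NOTE-seq and 20152 with 10x in eHAP cells, and to 8384 and 18911 with PMA/ION and 8925 and 18475 in unstimulated Jurkat cells. The mixed library gave 31610 in Jurkat and 26176 in NIH3T3 barcodes, the library labelled K562 with IAA 14725.5 and the naive T library without 4sU 13322. Barcodes of the 10x library with under 20% chrM gave 19339, and leaving out ATP5MGL, UQCRHL and hyphenated symbols gave 18598 in ETO. The members' control labelled share was 29.8% of that of all genes per covered T. In new RNA depth is a limit, since a member such as SDHC had 6 to 97 converted reads in a library.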

Other observations

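The mixed library, which enters no comparison, held 239 Jurkat and 291 NIH3T3 barcodes and 56 barcodes with both species. Members took 2.98% of UMIs in its Jurkat barcodes and 2.47% in its NIH3T3 barcodes, and chrM protein genes 5.76 and 5.77%. Fibroblast markers summed to 1712 CPM in the NIH3T3 barcodes, with 5 of 6 seen. Cox6a2, the muscle form of a complex IV subunit, stood at 19.9 CPM there, while it was at 0 in naive T cells at every time.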
